A study of Mus musculus with 4 samples.

Results

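The Hist1 locus of mouse chromosome 13 is described here through its CCGG sites, the positions at which DNA methylation was read. Its members were the CCGG sites in 2 blocks, chr13:21750000-22200000 and chr13:23550000-23900000 of mouse genome build mm9. The rule used position only and no measured value, though it was set with earlier results of these data known. There were 738 such sites of 1594137 in the genome (0.0463%), 407 in the first block and 331 in the second. The 683 sites of the stretch between the blocks, chr13:22200001-23549999, served as neighbours for comparison.

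The DNA came from MC1-ZE7, a mouse embryonic stem cell line of 129S6/SvEvTac background at passage 31, grown without feeder cells in serum and leukemia inhibitory factor. The line carries the fluorescent protein Emerald under the Zscan4c promoter, and Zscan4 genes are active in the 2-cell embryo and, transiently, in few cells of a stem cell culture. Cells were sorted by fluorescence into an Emerald-high and an Emerald-negative fraction, with no other treatment, and genomic DNA of each was cut with HpaII or with MspI. The labels give no replicate culture or sort, so each of the 4 combinations is 1 library of 1 reporter line, and Emerald stands in for Zscan4 itself. HpaII cuts CCGG only where the central CG is unmethylated, and MspI cuts it either way. HELP tagging sequences a short tag of the DNA beside each cut, so a high ratio of HpaII to MspI tags marks low methylation. The series asks whether cells with and without Zscan4 expression differ in DNA methylation.

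The Emerald-high libraries held 5662614 HpaII and 9372711 MspI tags, and the Emerald-negative libraries 9535691 and 9307616. Ratios below use tags scaled to these totals, so a ratio of 1 is the average of the genome, and a shift common to every site stays invisible. The log2 difference subtracts the log2 ratio of Emerald-negative cells from that of Emerald-high cells, and a value above 0 means relatively more HpaII cutting in Emerald-high cells. Intervals are 95% and cover counting error only: the tags carry no molecular identifiers, and nothing measured the spread between cultures or sorts.

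Histones are the proteins around which DNA is wrapped. H2A, H2B, H3 and H4 form the core of the nucleosome, and H1 binds the linker DNA between nucleosomes. Hist1 is the largest cluster of replication-dependent histone genes, which are short, lack introns, exist in many near-identical copies and are transcribed mainly in S phase. In the order of genes given by RefSeq for build GRCm38.p6, 24 histone genes and pseudogenes came before a run of vomeronasal receptor genes and 32 after it. That first group was interspersed with 31 tRNA genes. The next part held 75 genes and pseudogenes of vomeronasal receptors, which sense pheromones, and no histone or tRNA gene. After the last of them came 45 tRNA genes together with Zfp322a, a zinc finger gene, Abt1, an activator of basal transcription, and Btn1a1, which encodes butyrophilin. The second group of histone genes then followed, with Hfe, an iron regulator, and the Slc17a1 to Slc17a4 transporter genes among them. These are names and order from another build, so no gene was placed on the mm9 sites by coordinate.

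The assay reads a promoter only where it holds CCGG, and histone promoters differed in this. RefSeq promoter sequences, 250 bases before to 50 after the start, were matched by symbol for 51 of 54 Hist1 histone genes (52 promoters). CCGG occurred in 15 of the 52 (28.8%, exact interval 17.1 to 43.1), compared with 52.8% of 32851 promoters in the table. It was searched as the letters CCGG, which read the same on both strands. By family, 0 of 13 H2A promoters held it, 1 of 15 H2B, 2 of 7 H3, 5 of 6 H1 and 7 of 11 H4. The H4 promoters held up to 5 sites, and the H1, H2B and H3 promoters at most 1. CG itself was not scarce: the median was 10.5 CG in a histone promoter and 7 over all promoters. Only 4.32% of the CG in histone promoters lay inside CCGG, compared with 11.0% over all promoters. None of the 33 vomeronasal receptor promoters of the locus held CCGG.

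The sequences below show what the assay could and could not read. H4c1 had the most sites of any histone promoter. H2ac12 stands for the H2A promoters, with no site. H4c17 and H4c18 are a pair of H4 genes whose promoters are nearly the same letters. Each is the 250 bases before the start of the gene, 5′ to 3′ on the strand of the gene, from RefSeq for GRCm38.p6, with CCGG in capitals.
H4c1: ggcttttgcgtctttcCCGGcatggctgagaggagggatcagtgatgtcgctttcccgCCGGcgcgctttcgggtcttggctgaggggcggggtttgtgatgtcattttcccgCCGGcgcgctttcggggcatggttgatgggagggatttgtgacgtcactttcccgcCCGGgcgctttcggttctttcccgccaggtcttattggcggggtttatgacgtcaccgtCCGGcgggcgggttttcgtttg
H2ac12: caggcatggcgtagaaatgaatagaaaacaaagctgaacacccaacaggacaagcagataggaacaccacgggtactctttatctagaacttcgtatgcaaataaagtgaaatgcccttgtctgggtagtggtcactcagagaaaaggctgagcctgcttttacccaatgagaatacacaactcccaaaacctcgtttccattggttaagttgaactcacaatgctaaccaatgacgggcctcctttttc
H4c17: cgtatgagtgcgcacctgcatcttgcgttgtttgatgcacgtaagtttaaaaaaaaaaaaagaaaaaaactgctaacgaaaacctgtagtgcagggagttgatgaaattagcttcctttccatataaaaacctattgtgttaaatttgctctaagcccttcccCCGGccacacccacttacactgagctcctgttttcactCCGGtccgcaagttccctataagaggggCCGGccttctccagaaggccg
H4c18: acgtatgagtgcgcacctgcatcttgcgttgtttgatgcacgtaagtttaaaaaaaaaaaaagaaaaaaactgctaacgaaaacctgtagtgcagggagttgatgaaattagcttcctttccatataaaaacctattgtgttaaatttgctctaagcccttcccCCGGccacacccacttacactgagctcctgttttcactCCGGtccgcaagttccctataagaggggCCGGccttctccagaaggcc
The H4c17 and H4c18 stretches were identical at 249 of 249 bases once one was shifted by 1 base. Those of 2 H2B genes, H2bc23 and H4bc24, were identical at 250 of 250 bases and held no CCGG.

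Both Hist1 blocks were strongly cut by HpaII in both cell fractions, and most of the stretch that separates them was not. Summed over the 738 sites, there were 5753 HpaII and 3530 MspI tags in Emerald-high cells and 10568 HpaII and 3350 MspI tags in Emerald-negative cells. The scaled HpaII/MspI ratio was 2.70 (Emerald-high) and 3.08 (Emerald-negative), compared with 1.00 in both over the rest of the genome, where tags sum almost to the scale. The first block stood at 2.53 and 2.92 and the second at 2.88 and 3.27. Each block therefore showed the level on its own.

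In 50 kb tiles, 14 of the 16 tiles of the blocks had a ratio above 1.5, in each of the fractions. The exceptions were the first and the last tile of the first block, at 0.42 and 0.22 in Emerald-negative cells and 0.94 and 0.35 in Emerald-high cells. Of the 23 tiles from the start of the stretch between the blocks up to 200 kb before its end, 0 exceeded 1.5 in Emerald-high cells and 1 did so in Emerald-negative cells, with medians of 0.41 and 0.31. All 4 tiles in the last 200 kb of the stretch exceeded it, at 1.60 to 3.56 in Emerald-high and 1.91 to 4.73 in Emerald-negative cells. The high level of the second block thus began before its boundary as drawn. Zfp322a and an uncharacterised gene, Gm46404, were found in those 200 kb by the restriction map described below, and RefSeq places both between the last vomeronasal receptor and the next histone gene.

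**Figure D1:**
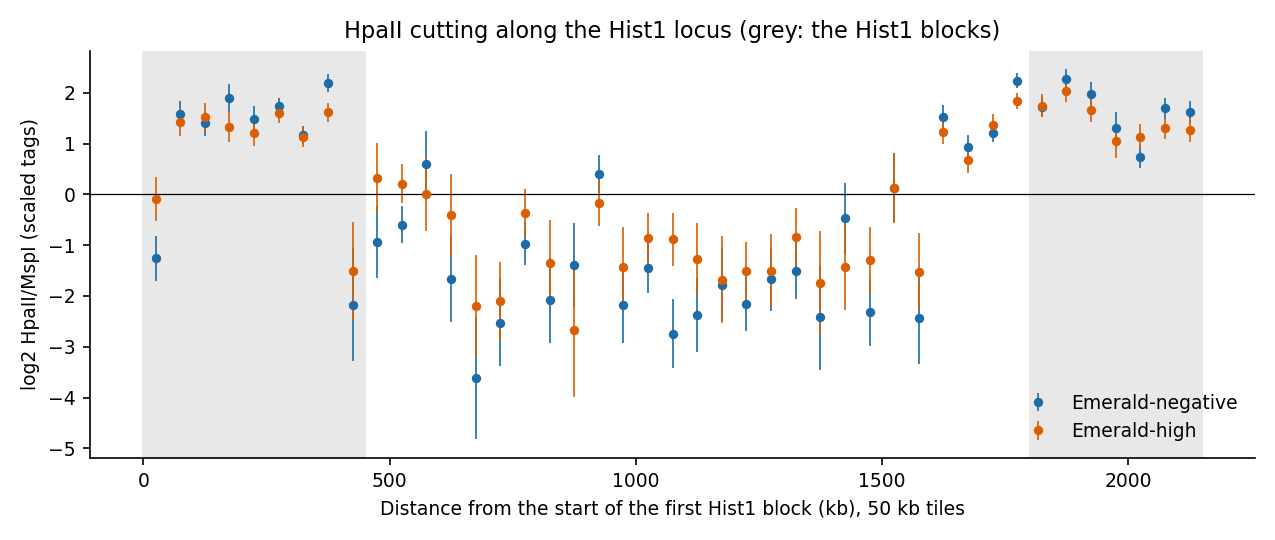
Log2 of the scaled HpaII/MspI ratio in 50 kb tiles against distance (kb) from the start of the first block, in Emerald-negative (blue) and Emerald-high (orange) cells. Grey areas are the Hist1 blocks and bars are 95% counting intervals. In Emerald-negative cells 14 of 16 tiles of the blocks lie above a ratio of 1.5, as do the last 4 tiles of the stretch between them.

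Sites were then grouped by the number of CCGG within 500 bp, counting the site itself, since CCGG-dense DNA is usually unmethylated. The blocks held 192 isolated sites, 315 sites with 2 to 4 CCGG, 225 with 5 to 9 and 6 with 10 or more, the density of a CpG island. All 6 of the densest sites lay in the second block. Sites with 5 to 9 CCGG made up 30.5% of the sites of the blocks and 10.2% of the rest of the genome.

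At equal density the Hist1 sites were still cut more by HpaII than those elsewhere. Isolated Hist1 sites had ratios of 1.74 (Emerald-high) and 1.66 (Emerald-negative), compared with 0.72 and 0.51 in the rest of the genome. The Hist1 level was thus 3.25-fold that of the rest in Emerald-negative cells and 2.43-fold in Emerald-high cells. At 2 to 4 CCGG the Hist1 ratios were 2.66 and 3.03, against 0.80 and 0.75, or 3.35-fold and 4.06-fold the level elsewhere. At 5 to 9 CCGG they were 4.07 and 5.65, against 2.36 and 3.24, or 1.72-fold and 1.74-fold. For the 6 densest sites the ratios of 3.88 and 4.45 against 3.36 and 5.54 differed by less than their counting error.

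Against the stretch between the blocks, isolated Hist1 sites had a 3.48-fold higher level in Emerald-negative cells. At 2 to 4 CCGG the level was 1.56-fold and at 5 to 9 CCGG 1.53-fold that of the stretch. Without its last 200 kb, the stretch stood at 0.29 for isolated sites and 0.37 for sites with 2 to 4 CCGG in Emerald-negative cells. In those last 200 kb the same classes stood at 1.33 and 3.54, compared with 1.66 and 3.03 in the blocks.

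Summed over sparse sites, the difference between the fractions was lower in the blocks than in the genome, where such sites are mostly cut less. At isolated Hist1 sites there were 1141 HpaII and 1084 MspI tags in Emerald-high and 1978 and 1161 in Emerald-negative cells. Their log2 difference was 0.07 (-0.09 to 0.23), whereas it was 0.48 (0.480 to 0.487) at isolated sites of the rest of the genome. The gap between them was -0.42 (-0.58 to -0.26), beyond counting error. The MspI libraries differed by -0.11 at these Hist1 sites and by -0.10 elsewhere.

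This gap was not resolved among isolated sites of like level. Tag counts come in 2 parts, and sites with 10 or more MspI tags in a part were sorted there by a score of Emerald-negative HpaII against both MspI libraries together, while differences were computed from the remaining one. Below a score of 20, Hist1 sites stood at 0.78 or 1.22, depending on the part used to sort, and the rest at 0.95 or 1.03. From 20 to 80 they stood at -0.08 or 0.05, and the rest at 0.43 or 0.41. Above 80 they stood at 0.59 or -0.42, and the rest at 0.01 or -0.05. Every Hist1 interval held the value of the rest, on 5 to 21 sites each, so the depth cannot show a gap within a level. The gap in summed tags is therefore not shown to be particular to the locus.

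Sites with 2 to 4 CCGG held 2648 HpaII and 1646 MspI tags in Emerald-high and 4665 and 1502 in Emerald-negative cells. The log2 difference was -0.19 (-0.31 to -0.06) in the blocks and 0.09 (0.0872 to 0.0934) in the rest of the genome, a gap of -0.28 (-0.40 to -0.16). Sorted by score as above, Hist1 sites stood at 1.04 or -0.34 below 20, and the rest at 0.77 or 0.73. From 20 to 80 they stood at 0.53 (0.053 to 1.007) or -0.39 (-0.844 to 0.067), and the rest at 0.101 or 0.073. The rest thus lay inside the first interval and just above the second. Above 80 they stood at 0.16 or -0.07, and the rest at -0.26 or -0.25. The Hist1 sign turned with the part used to sort at each level, so this gap was not resolved either. At 5 to 9 CCGG, with 1888 HpaII and 767.4 MspI tags against 3737 and 645.6, the summed log2 difference was -0.47 (-0.64 to -0.30), and the rest stood at -0.46. That gap of -0.02 (-0.19 to 0.15) was within counting error. At the 6 densest sites the difference was -0.20 (-0.97 to 0.57) against -0.72, a gap of 0.52 (-0.25 to 1.29) that the depth cannot resolve. Scaled instead to dense sites, every log2 difference rises by 0.72, so the summed class values below 0 in the blocks turn positive, while the gaps stay the same.

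The log2 difference between the fractions did not differ between the blocks beyond counting error in these classes. The log2 difference was 0.14 in the first and -0.02 in the second at isolated sites, -0.24 and -0.12 at 2 to 4 CCGG, and -0.48 and -0.49 at 5 to 9 CCGG. The intervals of the blocks overlapped in each class.

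Compared with the stretch between the blocks, the gap at isolated sites was -0.44 (-0.70 to -0.19). At 2 to 4 CCGG it was 0.03 (-0.16 to 0.22) with the whole stretch, and -0.66 (-0.98 to -0.34) when the last 200 kb of the stretch were left out. At 5 to 9 CCGG it was -0.06 (-0.39 to 0.27) and became 0.58 (-0.15 to 1.30). The tags of the stretch at 2 to 4 CCGG came mostly from its last 200 kb, with 1232 of 1461 HpaII tags in Emerald-high cells.

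**Figure D2:**
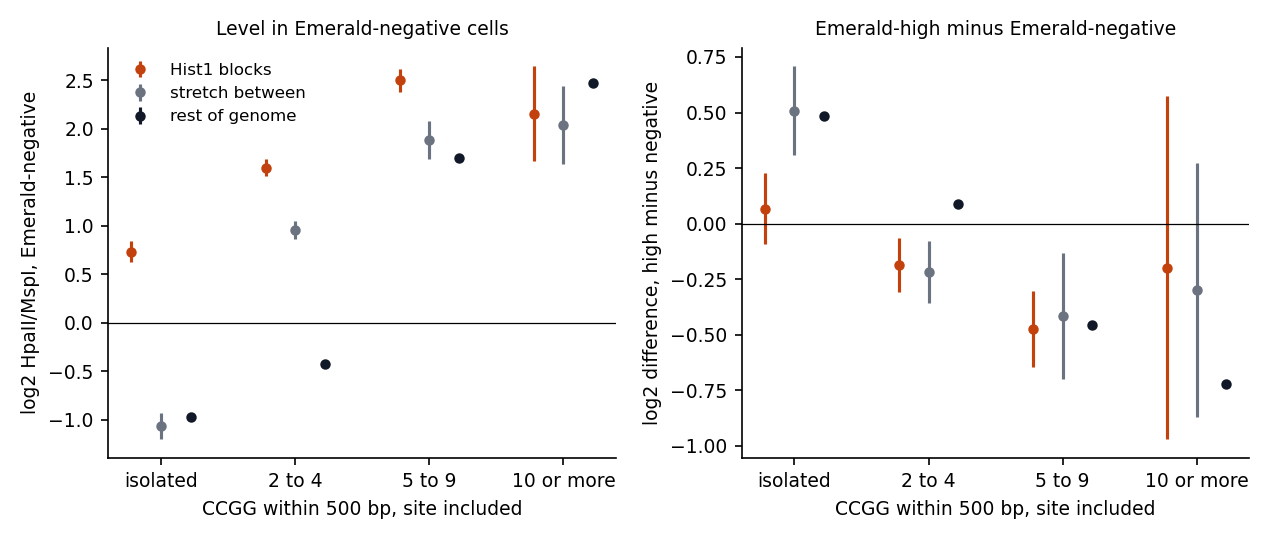
Left: log2 of the scaled HpaII/MspI ratio in Emerald-negative cells by number of CCGG within 500 bp. Right: log2 difference, Emerald-high minus Emerald-negative. Points are summed tags with 95% counting intervals for the Hist1 blocks, the stretch between them and the rest of the genome. At isolated sites the Hist1 level lies 3.25-fold above the rest and the Hist1 difference is 0.07, compared with 0.48 in the rest.

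Summed tags give most weight to the sites that are cut most. Single sites, scored only where MspI tags sufficed, gave another picture, and the cause was not tested. A score of 0 means no HpaII tag, 50 equal scaled HpaII and MspI tags, and 100 HpaII tags only. Of the 738 sites, 90 reached 10 MspI tags in both MspI libraries. Their median score stood at 75.6 (Emerald-high) and 76.2 (Emerald-negative), compared with 26.8 and 14.4 over the rest of the genome. Scores above 80 in Emerald-negative cells were found at 39 of the 90 (43.3%, exact interval 32.9 to 54.2) and at 7.60% of sites elsewhere. Among these 39, 7 had identical values with fractions of a tag, described below, and the interval counts them as separate sites. Among isolated sites, 7 of 29 exceeded 80 (24.1%, 10.3 to 43.5) against 2.14% elsewhere. Scores below 20 were found at 12 of the 29 in Emerald-negative cells (41.4%) and at 5 in Emerald-high cells (17.2%), compared with 61.4% and 38.5% elsewhere.

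Site by site, 48 of the 90 scored higher in Emerald-high cells (53.3%), compared with 65.4% of sites elsewhere. Log2 differences of single sites were computed with 1 tag added to each count, which draws sites with few HpaII tags upward. For example, chr13:22082424, with 0 HpaII tags in both fractions, stood at 0.76. The median log2 difference of isolated Hist1 sites was 0.42 and that of the rest 0.86. At 2 to 4 CCGG the medians were 0.29 and 0.66, so the median Hist1 site lay above 0 where the summed tags lay below it. The summed tags covered all sites of the class and had no tag added. How much the added tag and the choice of sites account for was not tested, nor was their share in the distance to the rest.

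Each site was also compared between the fractions by a two-sided Fisher's exact test with Benjamini-Hochberg adjustment over all 218697 sites. Such a test sets library against library, and says nothing of the conditions beyond these libraries. A call needed an adjusted p under 0.05 and a 2-fold change. None of the 90 was called in either direction, where 0.102% of all sites were called higher and 0.0297% lower in Emerald-high cells, and 4 had an unadjusted p under 0.05, as had 8.67% of all sites. A count of 0 of 90 is near that background.

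Among the 90 scored sites, the 2 with most HpaII tags stood alone. The first, chr13:23559023 in the second block, is isolated and held 62.0 HpaII and 19.2 MspI tags in Emerald-high and 113.2 and 13.5 in Emerald-negative cells. Fractions of a tag occur in these values, so they are partly shared with other positions. Its scores were 88.3 and 92.3, high in both fractions. The next, chr13:23593865, is isolated too and held 46 and 20 tags against 123 and 15, with scores of 83.6 and 92.1. The third, chr13:22107508, had 5 CCGG in its window and scores of 78.8 and 87.1. The fourth, chr13:21973296, had 3 and scores of 81.6 and 86.3. The fifth, chr13:21809659, shared its values with 6 other sites of the locus, described below.

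CCGG clusters are the closest that these data come to promoter-sized regions. A cluster was a run of at least 3 sites with 5 or more CCGG in their windows, neighbours at most 500 bp apart. The blocks held 40 clusters, 24 in the first and 16 in the second, of which 23 reached 10 MspI tags in both MspI libraries. All 23 scored above 80 in Emerald-negative cells, from 80.8 to 93.6 with a median of 89.7. Over the genome 67.0% of 20192 clusters did so, with a median of 86.6, and 4649 of them scored below 50. In Emerald-high cells 21 of the 23 exceeded 80, compared with 49.6% of all clusters. No weakly cut cluster was found among those that could be read. Score levels depend on the scaling: scaled to dense sites, the Emerald-negative median of the 23 was 53.3.

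No Hist1 cluster passed the test between the fractions. Their median log2 difference was -0.45, with 21 below 0 and 2 above, and the median over all clusters was -0.46, with 75.4% below 0. None was called by Fisher's exact test with adjustment over all clusters, where 0.792% of clusters were called higher and 8.63% lower in Emerald-high cells. At an unadjusted p under 0.05 there were 5 of 23, where 32.4% of all clusters passed, and the smallest adjusted p was 0.080. Their MspI libraries differed by a median of 0.26 and those of all clusters by 0.18, in the direction that lowers the ratio in Emerald-high cells. Values were not independent, since 16 of the 23 held tags divided among several positions and only 18 distinct sets of values occurred. The other 7 had a median of -0.18, from -0.69 to 0.08, and scored 80.8 to 90.4 in Emerald-negative cells.

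Some clusters can be given by name of place. The cluster with most HpaII tags, chr13:23654077-23654508 with 7 sites, held 164.8 HpaII and 42.7 MspI tags in Emerald-high and 242.1 and 32.9 in Emerald-negative cells. Its scores were 90.1 and 91.2 and its log2 difference -0.16 (SE 0.36), well within counting error. The widest of the heavily tagged clusters, chr13:23830390-23831862 with 12 sites over 1472 bp, scored 83.2 and 89.1.

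The lowest differences came from a pair of clusters with the same values, chr13:21903529-21903796 and chr13:21923883-21924150. Each held 53.2 HpaII and 24 MspI tags in Emerald-high and 132.2 and 14.3 in Emerald-negative cells, a log2 difference of -1.24 (SE 0.52). The MspI libraries alone differed by 0.70 there (log2). The next lowest, chr13:23714027-23714398, stood at -1.04 with an MspI difference of 0.86. The highest, chr13:22036860-22037237, stood at 0.08 (SE 0.42), with 71 and 24 tags against 189 and 40. Its MspI difference was -0.72, so the MspI libraries took opposite signs at the ends of the range.

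**Figure D3:**
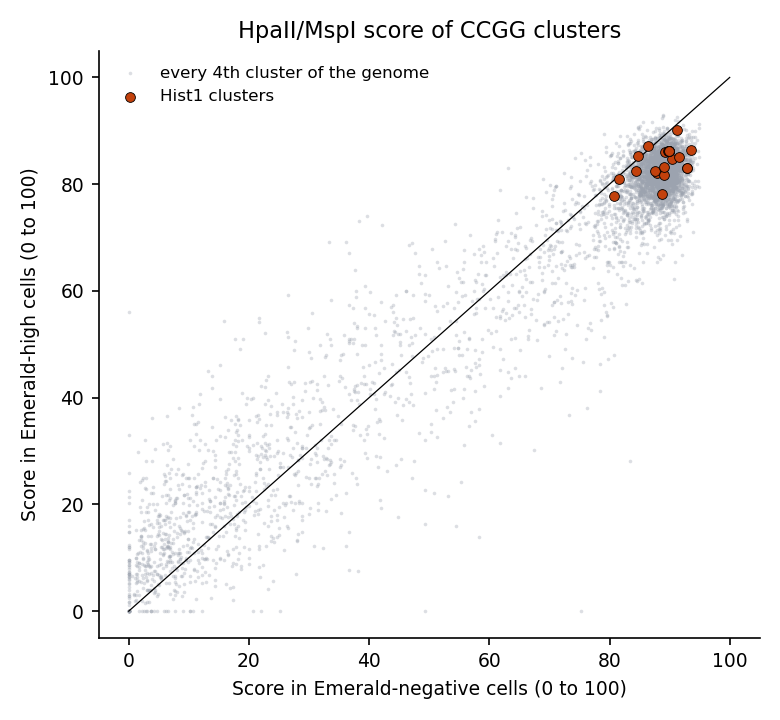
Score of CCGG clusters (100 times 2/π times the arctangent of the scaled HpaII/MspI ratio) in Emerald-high against Emerald-negative cells, for the 23 tested Hist1 clusters (orange) and every 4th tested cluster of the genome (grey). The line marks equal scores. All Hist1 clusters lie above 80 on the Emerald-negative axis and 21 of 23 score lower in Emerald-high cells.

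One histone promoter could be placed among the sites without coordinates. The distances between CCGG in a promoter form a restriction map. Among RefSeq promoters with at least 3 CCGG, 6935 in all, 4340 had a map found at 1 place only in the site list, and for 4340 that place lay on the chromosome of the gene. In the blocks this gave H4c1, whose promoter is printed above, at chr13:23853138-23853350. It encodes a copy of histone H4. Its 5 sites held 47 HpaII and 22 MspI tags in Emerald-high and 143 and 29 in Emerald-negative cells.

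The H4c1 promoter was strongly cut in both fractions, with scores of 82.5 and 87.0. The log2 difference of -0.44 (SE 0.47) was smaller than its counting error. Along the printed sequence, in order of position, the Emerald-negative HpaII tags were 28, 56, 46, 11 and 2 and the MspI tags 5, 12, 9, 2 and 1. The gene lies on the minus strand, so this order runs from the last CCGG printed to the first. The cluster around it, chr13:23852882-23853478 with 10 sites, scored 82.5 and 84.5 and had a log2 difference of -0.18 (SE 0.34).

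In the last 200 kb of the stretch between the blocks, the same map placed Zfp322a at chr13:23461117-23461277 and Gm46404 at chr13:23537825-23538032. Zfp322a scored 86.4 (Emerald-high) and 83.8 (Emerald-negative), and Gm46404 scored 87.8 and 91.8. These scores lie in the range of the Hist1 clusters.

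Some arrangements of CCGG recurred within the blocks. A run of 5 CCGG with gaps of 25, 33, 7 and 56 bp, 121 bp in all, occurred 8 times in the genome, 2 times in the first block and 6 in the second, and nowhere else. The second of its sites held 50.6 HpaII and 20.9 MspI tags in Emerald-high and 99.6 and 18.4 in Emerald-negative cells at 6 of the 8 copies. The same values occurred at chr13:23636485 in the second block, in a shorter run that has the first 4 sites and lacks the fifth. Equal values with fractions of a tag are what dividing tags among positions would give. The scores of 84.4 and 88.1 therefore cannot be assigned to any one of these positions. The third site held 6, 1, 11 and 0 tags at all 8 copies, whole numbers that are nevertheless the same. The fourth site held no tag at any copy.

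A second run, of 5 CCGG with gaps of 5, 31, 41 and 8 bp, 85 bp in all, occurred 12 times, 8 in the first block and 4 in the second, and nowhere else in the genome. Of its 60 sites, 59 had no tag in any of the 4 libraries. The exception was a single site with 12 HpaII and 0 MspI tags in Emerald-high and 21 and 4 in Emerald-negative cells. MspI cuts CCGG whether or not it is methylated, so the empty sites say nothing of methylation. Whether these runs lie in histone genes or in others of the blocks was not determined, since no annotation of mm9 was used here.

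Sharing and loss of tags were more common in the blocks than in the rest of the genome, and no less common in the stretch between them. Fractions of a tag, a mark of divided tags, were found at 81 of the 738 sites (11.0%, exact interval 8.81 to 13.5) and at 3.06% of the rest of the genome. Tags that divide into whole numbers carry no such mark, so these shares may be too low. The stretch between, with its vomeronasal receptor genes, had 83 of 683 (12.2%). No tag in any library was found at 232 Hist1 sites (31.4%, 28.1 to 34.9), compared with 24.2% of the rest and 37.8% of the stretch. In the blocks this share rose with density, from 12.5% of isolated sites to 33.0% at 2 to 4 CCGG and 46.2% at 5 to 9. The same classes stood at 20.5%, 23.9% and 29.1% in the rest of the genome, and at 26.1%, 41.2% and 43.5% in the stretch. Of the 104 empty Hist1 sites at 5 to 9 CCGG, 59 lay in copies of the 85 bp run, so much of the 46.2% came from it. Shares without that run were not computed, and the exact intervals count its copies as separate sites. Of the 40 clusters, 15 were empty (37.5%, 22.7 to 54.2), compared with 17.2% of clusters in the genome. Most of the 15 held the 85 bp run. The high scores above therefore describe the part of the locus that tags could reach.

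**Figure D4:**
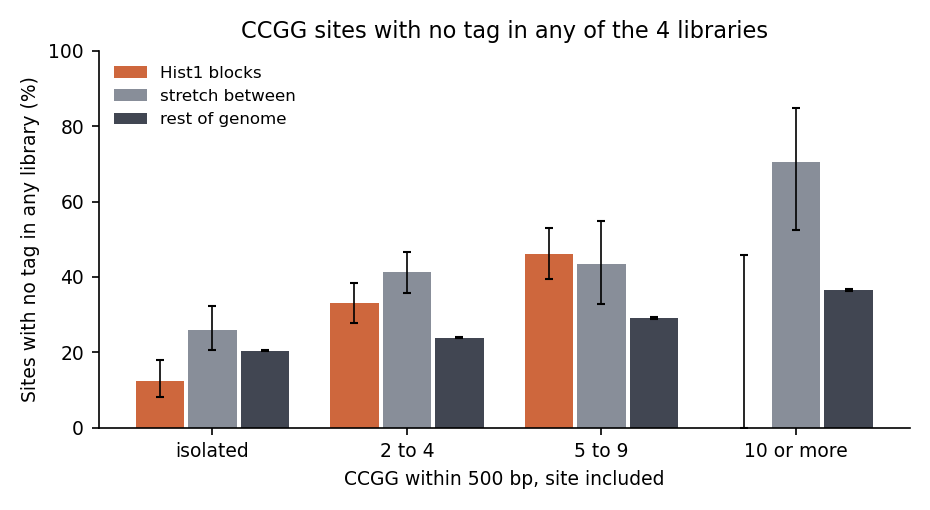
Share of CCGG sites (%) with no tag in any of the 4 libraries by number of CCGG within 500 bp, for the Hist1 blocks, the stretch between them and the rest of the genome, with exact 95% intervals. In the Hist1 blocks the share rises from 12.5% at isolated sites to 46.2% at 5 to 9 CCGG. In that last class, 59 of the 104 empty Hist1 sites lie in copies of the 85 bp run. None of the 6 densest Hist1 sites was empty, and their interval reaches 45.9%.

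In 100 kb bins the blocks ranked among the most HpaII-cut parts of the genome. All 7 bins that lie whole inside the blocks were at or above the 92.4th percentile of 25529 bins in Emerald-negative cells and the 97.9th in Emerald-high cells. Their scaled ratios ran from 1.92 to 4.44 in Emerald-negative and from 2.15 to 3.63 in Emerald-high cells. The median over all bins was 0.67 and 0.83. The 13 whole bins of the stretch had medians of 0.43 and 0.61.

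Between the fractions, the bins of the blocks lay lower than most bins of the genome. Their log2 differences ran from -0.57 to 0.16 with a median of -0.29, and 6 of 7 were below 0, compared with a median of 0.26 and 28.5% below 0 over all bins. Bins were not matched for CCGG density or for level. Sites with 5 to 9 CCGG made up 30.5% of the blocks and 10.2% of the rest of the genome. The lower values are therefore not shown to be particular to the locus. The lowest, chr13:22100001-22200000, held 693.2 HpaII and 417 MspI tags in Emerald-high and 1341 and 319.8 in Emerald-negative cells. Its log2 difference was -0.57 (SE 0.13), beyond counting error but under 2-fold. Some other bins below 0 also lay beyond counting error, though not all. The only bin above 0, chr13:23700001-23800000, held 468 and 359.7 against 701.7 and 355.8, a difference of 0.16 (SE 0.14) within counting error. No bin of the blocks was called by Fisher's exact test with adjustment over all bins, where 6.55% were called higher and 0.0196% lower, since none changed 2-fold. In the stretch 1 of 13 bins was called higher.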

How the data were processed

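HELP tagging counts were analysed for 4 libraries, 1 for each fraction and enzyme. The files deposited by the authors hold estimated counts of tags per CCGG position, in 2 parts and their sum, not scaled to depth. The positions are of mm9, per the submitters' processing notes. Aligner and handling of tags that match several positions were not given in the sources used here. Samples were grouped by their labels.

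Tags were scaled to library totals and summed by density class, cluster, 50 kb tile and 100 kb bin. The score was 100 × (2/π) × arctan of the scaled HpaII/MspI ratio. Clusters and sites needed 10 MspI tags in each MspI library and bins 20. Fisher's exact test, two-sided, used counts rounded to whole tags and a null odds ratio set by the totals, with Benjamini-Hochberg adjustment over the genome. Fold changes for calls, and the log2 differences of single sites, clusters, bins and placed promoters, used a pseudocount of 1 tag. Intervals were Poisson for log2 ratios and Clopper-Pearson for shares. Named were the 5 clusters with most HpaII tags, the 5 highest and 5 lowest differences, and any scoring under 50 in Emerald-negative cells. Of the scored sites, the 5 with most HpaII tags were named. The text gives those that carry the range. The members, lists and rules were chosen with earlier results of these data known. The tiles, the sorting by level, the repeated runs and the restriction maps were added after seeing the data. The test was checked on simulated data that held counting error only, with calls by adjusted p alone. Over clusters, the variance between the real MspI libraries was 1.65 times that of counting error. Computations ran in Python 3.11.15 with scipy 1.17.1, numpy 2.4.6 and pandas 2.3.3, and figures used matplotlib 3.10.9.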

Additional observations from a re-analysis of the deposited data

How the results depend on the processing

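No paired analysis was possible because each combination of fraction and enzyme has 1 library. The 8 gaps between the Hist1 blocks and the stretch or the rest were recomputed under 11 other settings, and 3 of these 88 values left the main counting interval. Scaling to dense sites or to autosomes cancels in a gap, as does dividing all tags by the excess spread between MspI libraries. Values under those settings could not move, and they are included in the 88 and in the 11 for each gap. The sign changed in 11 of the 88, and for 11 of 11 the main interval includes 0. The gap to the rest at isolated sites ranged from -0.55 to -0.24 and stayed below 0 in 11 of 11, the -0.24 coming from one of the tag parts alone, in which the log2 difference itself was 0.24. The other part alone gave -1.52 at sites with 10 or more CCGG, -1.36 against the stretch and -0.79 against the rest, on 6 sites. The gap to the rest at 2 to 4 CCGG ranged from -0.31 to -0.19.

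Scaled to dense sites, which adds 0.72 to every log2 difference, the blocks stood at 0.79 (isolated), 0.53 (2 to 4 CCGG) and 0.25 (5 to 9 CCGG), and the cluster median at 0.27, so the last 3 changed sign while all clusters moved alike, to a median of 0.26. The HpaII libraries alone gave -0.23 at 5 to 9 CCGG and a cluster median of -0.21. Sites with whole tags only left 12 clusters, with a median of -0.25. Clusters built from sites with 10 or more CCGG left 1, at -0.20. The number of clusters called was 0 in 31 of 32 recounts, and 1 was called lower when HpaII tags of Emerald-negative cells were thinned to the depth of the other fraction. The stretch without its last 200 kb, chosen after seeing the data, gave gaps of -0.72 (isolated), -0.66 (2 to 4 CCGG), 0.58 (5 to 9 CCGG) and 1.43 (10 or more CCGG). The cause of these changes was not tested beyond what each alternative builds in. Depth limits single sites most: 90 of 738 could be scored.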
